A study of Mus musculus with 2 samples.

Results

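The alpha-like and beta-like globin genes of the mouse are the 10 listed genes Hba-a1, Hba-a2, Hba-x, Hbq1a and Hbq1b on chromosome 11 and Hbb-bs, Hbb-bt, Hbb-bh1, Hbb-bh2 and Hbb-y on chromosome 7. They were taken as a list of symbols with no threshold on a measured value, and all 10 of them had a row among the 43346 Ensembl gene rows of the deposited tables. They were measured in total RNA of G1E-ER4, an immortalized mouse erythroid line in which the endogenous Gata1 is lost and an estradiol-dependent version of the factor has been put in its place. Both libraries belong to 1 group, replicates 1 and 2, made from cells given 17beta-estradiol at 10 nM for 24 h, and the labels give the strain as C57BL/6J, the sex as male and the stage as postnatal. All cells of the group thus share the Gata1 loss, the estradiol-dependent factor and the treatment. Ribosomal RNA had been removed, and ScriptSeq libraries were prepared from 100 ng of it, with a labelled size range of 200 to 1000. No untreated library was analysed here, so no effect of estradiol was tested, and the questions asked are which globins these cells held, in what proportion, in which transcript forms and how well the replicates agreed. The labels call the libraries biological replicates without saying whether the cultures were grown separately, so the spread given here is that between these libraries.

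Haemoglobin is a tetramer of alpha-like and beta-like chains that carries oxygen in red cells. Each kind of chain has its own gene cluster, in which the genes lie broadly in the order of their use during development: embryonic genes come first and adult genes last, and each cluster is switched on by a distant enhancer, the locus control region in the case of beta. GATA1, KLF1 and NF-E2 are the erythroid factors best known for acting on these clusters, and a surplus of free alpha or beta chains is toxic, so red cell precursors keep the chains close to balance. Total RNA also holds unspliced transcripts, and from bulk RNA fewer cells with a transcript and less of that transcript per cell cannot be told apart.

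Adult globins come as couples of near-identical genes, and the bases by which the members of a couple differ decide which reads can be assigned to 1 member. The coding sequences of Hba-a1 and Hba-a2, the adult alpha genes, are identical at 425 of 426 bases (99.8%), and those of Hbb-bs and Hbb-bt, the adult beta genes, at 440 of 441 (99.8%). The windows of 41 bases around the lone coding difference of each couple are shown because they are the coding stretch on which the split of the counts can rest, and the capital letter is the differing base. The windows of Hba-a1 (chr11:32284323-32284363, plus strand) and Hba-a2 (chr11:32297140-32297180, plus strand) carry the substitution C381T, and those of Hbb-bs (chr7:103826672-103826712, minus strand) and Hbb-bt (chr7:103812663-103812703, minus strand) carry C417T; coordinates are of build GRCm38, positions count from the A of the start codon, and the base of the first named gene stands first.
Hba-a1: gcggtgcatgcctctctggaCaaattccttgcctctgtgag
Hba-a2: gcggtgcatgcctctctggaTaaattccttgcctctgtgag
Hbb-bs: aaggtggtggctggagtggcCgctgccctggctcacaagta
Hbb-bt: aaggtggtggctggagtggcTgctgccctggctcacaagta
Both substitutions fall on the third position of their codon. The sequences are those of the reference assembly, and the files hold no base calls of these cells.

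The minor members were less alike. Hbq1a and Hbq1b, the theta-like alpha genes, were identical over 93.8% of the aligned coding columns, with 27 columns different. Hba-a1 shared 63.9% with Hba-x, the embryonic zeta-like gene. Hbb-bs shared 74.4% with each of Hbb-bh1 and Hbb-y, the embryonic beta-like genes, and 71.3% with Hbb-bh2, while Hbb-bh1 and Hbb-y shared 76.4%.

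Levels are given as TPM, the deposited length-scaled transcript share, which divides the expected count of a gene by its effective length and scales each library to the same sum. The libraries held 62080996 and 41051158 expected counts on Ensembl genes in replicates 1 and 2, with reads on 16115 and 19353 genes. Markers of the labelled erythroid identity were present, with 10 of 12 listed erythroid genes at 1 TPM or more in both libraries, against 36.3% of nuclear protein-coding genes. Gata1, at 60.05 and 73.23 TPM, is among them. This line carries an introduced version of Gata1, so its level is no evidence of identity. None of the 12 myeloid, 10 lymphoid and 8 mast cell markers reached 1 TPM in both. The summed level of the myeloid list was 0.26 TPM in replicate 1 and 1.81 TPM in replicate 2, that of the lymphoid list 0.15 and 0.09, and that of the mast cell list 1.37 and 1.51. Of the 9 megakaryocyte markers, 3 reached 1 TPM in both, Tubb1, Itga2b and Gp1ba, and the list summed to 11.3 and 13.8 TPM.

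At least 1 TPM in both libraries was reached by 4 of the 10 globins, the adult genes Hbb-bs, Hba-a2, Hba-a1 and Hbb-bt, against 19.6% of all Ensembl genes and 36.3% of the 21461 nuclear protein-coding genes. Hbb-bs, an adult beta gene, stood at 985.26 TPM in replicate 1 and 1629.38 TPM in replicate 2 (1307 ± 455, SD, n = 2), from 100390 and 125930 expected counts. That placed it at rank 4 in replicate 1 and at rank 1 in replicate 2 among the nuclear protein-coding genes. The deposited credible bounds, 971 to 989 TPM and 1604 to 1630 TPM, lay far apart, so the libraries differed by more than the uncertainty of assigning reads. Hbb-bt, the other adult beta gene, stood at 186.70 and 241.88 TPM (214 ± 39.0, SD, n = 2), rank 100 and rank 75, with bounds of 178 to 193 and 228 to 251.

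Hba-a2 was the higher of the alpha genes in both libraries. It stood at 930.06 and 1105.67 TPM (1018 ± 124, SD, n = 2), rank 5 and rank 4, and Hba-a1 at 261.31 and 319.85 TPM (291 ± 41.4, SD, n = 2), rank 59 and rank 42. The bounds of the replicates did not overlap for Hba-a2 (917 to 932 and 1087 to 1107) or for Hba-a1 (255 to 264 and 312 to 323). Each of the 4 adult genes had a higher TPM in replicate 2, as did the 3 minor members with reads; of 9777 genes with a mean count of 100 or more, 44.0% did. In each library the order was the same, Hbb-bs, Hba-a2, Hba-a1 and Hbb-bt. Over the replicates Hbb-bs (from 985.26) overlapped Hba-a2 (up to 1105.67), so their ranges over the libraries do not separate them. Within each library the bounds of Hbb-bs lay above those of Hba-a2, at 971 to 989 against 917 to 932 in replicate 1. In replicate 2 they were 1604 to 1630 against 1087 to 1107. Hba-a1 and Hbb-bt did not overlap, with 241.88 TPM as the highest value of Hbb-bt and 261.31 TPM as the lowest of Hba-a1.

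**Figure D1:**
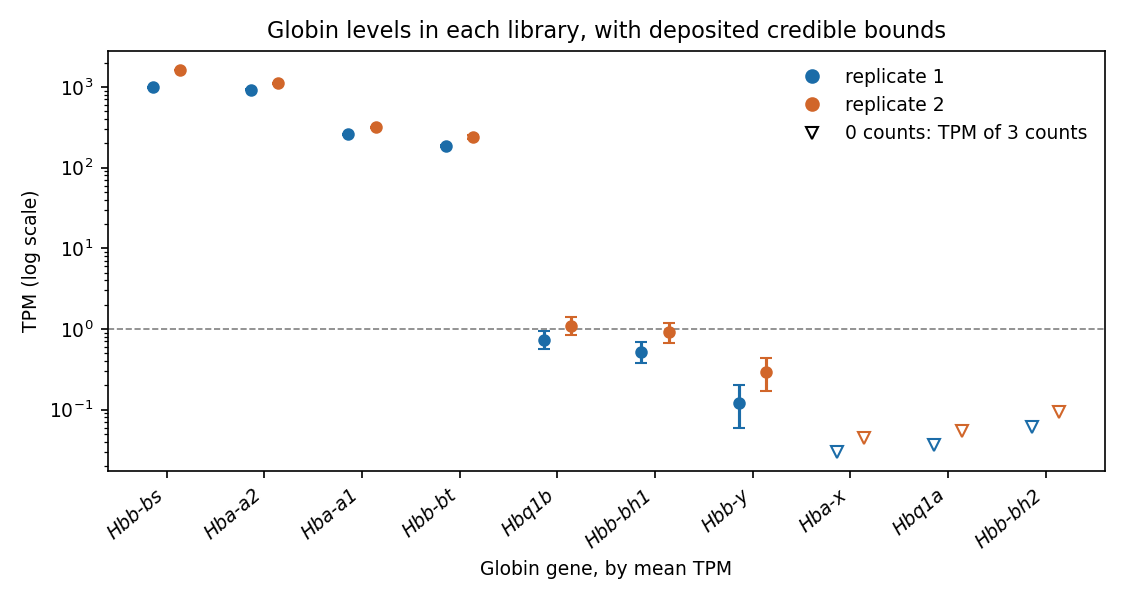
TPM (log axis) of the 10 globin genes in replicate 1 (blue) and replicate 2 (orange), with bars for the deposited credible bounds and open triangles for the TPM that 3 counts would give where a gene had 0 counts; the dashed line is 1 TPM. The 4 adult genes lie between 186.70 and 1629.38 TPM, the 3 minor genes with reads between 0.12 and 1.10 TPM, and neither library had a count for Hba-x, Hbq1a or Hbb-bh2.

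Of the other 6 genes, 3 had reads. Hbq1b, a theta-like gene of unsettled function in the mouse, stood at 0.74 and 1.10 TPM from 57 and 56 expected counts (0.920 ± 0.255, SD, n = 2; bounds 0.564 to 0.947 and 0.834 to 1.41). Hbb-bh1, the embryonic beta-like gene of primitive red cells, stood at 0.52 and 0.91 TPM from 44 and 51 counts, with bounds of 0.378 to 0.684 and 0.674 to 1.17. Hbb-y, the embryonic epsilon-like gene, stood at 0.12 and 0.29 TPM from 11 and 18 counts, with bounds of 0.0590 to 0.199 and 0.171 to 0.435. The bounds of the replicates overlapped for all 3, but each TPM lay outside the bounds of the other library. Such an overlap therefore does not decide whether the replicates differed. Hbq1b and Hbb-bh1 also overlapped each other over the replicates, whereas Hbb-y lay below both in each library.

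Neither library had a read on Hba-x, on Hbq1a or on Hbb-bh2. A count of 3, taken as the limit that a count of 0 allows in a library, would equal 0.0300 and 0.0448 TPM for Hba-x in replicates 1 and 2, 0.0364 and 0.0548 TPM for Hbq1a, and 0.0605 and 0.0936 TPM for Hbb-bh2. Against these limits the adult alpha genes together were at least 39707-fold and 31823-fold higher than Hba-x. They were at least 32700-fold and 26009-fold higher than Hbq1a, and the adult beta genes together were at least 19370-fold and 20002-fold higher than Hbb-bh2. The beta-like embryonic genes were thus detected at a low level where the alpha-like embryonic gene Hba-x was not detected at this depth. Such limits cover counting error only, because without molecular identifiers several reads can come from 1 molecule.

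The 3 measured globin pseudogenes Hbb-bh0, Hbb-bh3 and Hba-ps4 had 0 counts in both libraries. Globins outside the clusters were also close to 0: Ngb, the neuronal globin, had 0 and 5 counts, Cygb, the ubiquitous cytoglobin, 0 and 2, Adgb, the testis globin, 2 and 0, and Mb, the muscle myoglobin, 0 and 0. Reads of the family were therefore almost wholly on the adult genes of the alpha and beta clusters.

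Together the 10 globins took 0.236% of the TPM of replicate 1 and 0.330% of that of replicate 2 (0.283 ± 0.0661%, SD, n = 2). Of the TPM of nuclear protein-coding genes they took 1.68% and 2.29%, and of all expected counts 0.336% and 0.526%. Most of the TPM thus lay outside nuclear protein-coding genes, and TPM values here are low beside values scaled to those genes alone. Rescaled to those genes, Hba-a1 stood at 1853 and 2223 in replicates 1 and 2, against 261.31 and 319.85 TPM. Genes nearest in level over both libraries, by the distance between log2 TPM values, were Eef1a1 (1383.84 and 1405.02 TPM), which carries transfer RNA to the ribosome, and then Hba-a2 for Hbb-bs. For Hba-a2 they were Mt1 (1127.77 and 853.33 TPM), a metallothionein, and then Hbb-bs. This likeness rests on 2 libraries and says nothing beyond the level.

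Summed over the couples, alpha globin and adult beta globin stood at nearly the same level in replicate 1 and not in replicate 2. Alpha was at 1191 and 1426 TPM (1308 ± 166, SD, n = 2) and adult beta at 1172 and 1871 TPM (1522 ± 494, SD, n = 2). Alpha was 1.02 times beta in replicate 1 and 0.762 times beta in replicate 2, a log2 ratio of -0.18 ± 0.29 (SD, n = 2), so the mean ratio did not exceed its spread. On expected counts, which are not divided by length, the ratio was 0.745 and 0.512, and on the TPM of protein-coding transcripts alone it was 1.30 and 0.781. The direction in replicate 1 therefore depended on the scale, while replicate 2 held more beta than alpha on each of these scales. An exact sign-flip test over 2 replicates cannot go below a p of 0.5, so no p is given for any ratio.

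Within each couple 1 gene was several-fold above the other in both libraries. Hba-a2 was 3.56 and 3.46 times Hba-a1 in TPM (log2 ratio 1.81 ± 0.03, SD, n = 2), and Hbb-bs was 5.28 and 6.74 times Hbb-bt (2.58 ± 0.25, SD, n = 2). Adult beta genes were 1831 and 1559 times the sum of Hbb-bh1 and Hbb-y (10.72 ± 0.16, SD, n = 2). Within that embryonic sum Hbb-bh1 was 4.33 and 3.14 times Hbb-y, from the low counts given above.

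How far the split within a couple is measured depends on the sequence its members do not share. Of the stretches of 50 bases in the protein-coding transcript of Hba-a2, 86.9% also occurred in an Hba-a1 transcript, and of those of Hba-a1 67.5% occurred in Hba-a2. Of the 211 stretches found in Hba-a1 and not in Hba-a2, 161 began in the 5′ untranslated region and 50 covered the coding difference C381T. For Hba-a2, 66 were not shared, 50 of them over that difference and 16 after it. The annotated start of Hba-a1 lies 161 bases upstream of its RefSeq start and that of Hba-a2 only 3. The annotated 5′ untranslated regions of Hba-a1 and Hba-a2 are 196 and 35 bases long, and the 3′ ones 77 and 93 bases. Stretches outside the coding difference were thus not shared because the annotated transcripts end at different places. Over the 250 bases upstream of the RefSeq starts the genes are 97.6% identical, so the 161 stretches need not separate the genes in the genome.

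For the adult beta couple 65.8% of the stretches of Hbb-bs and 58.3% of those of Hbb-bt were shared, taking the form of each transcript in the newer annotation. Hbb-bs was counted in a longer form, 778 bases against 628, whose sequence was not used here. For the theta-like couple 39.8% of the stretches of Hbq1b and 36.8% of those of Hbq1a were shared. The deposited tables carried the matching trace: the posterior SD of the count was the same for both members of each couple. It was 71.08 and 64.92 counts for each alpha gene in replicates 1 and 2, 385.89 and 376.60 for each adult beta gene, and 0 for Hbb-bh1 and Hbb-y.

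Couple sums were whole numbers at the 2 decimals deposited, 89091 and 73024 counts for alpha and 119555 and 142575 for adult beta, while the counts of the 4 single genes were not. The spread in the assignment thus lay between the members of a couple and left its sum fixed. As a share of the count, the posterior SD was largest for Hbb-bt, at 2.01% and 2.26%, and it was 0.384% and 0.299% for Hbb-bs. These values describe the counting on the reference sequence only. Mouse strains carry different haplotypes of the adult beta genes, and whether these cells carry the reference one was not tested. The RefSeq table also names Hbb-b1 and Hbb-b2, genes of another haplotype, which were not analysed here.

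Adult globin reads were also assigned to transcripts annotated as retaining an intron, and the share of these forms in Hba-a1 and Hbb-bs was lower in replicate 2 than in replicate 1. The retained-intron form of Hba-a1 took 41.57% of the TPM of its gene in replicate 1 and 15.73% in replicate 2 (28.7 ± 18.3%, SD, n = 2), or 6495 and 1968 expected counts. The retained-intron form of Hbb-bs took 34.36% and 6.74% (20.6 ± 19.5%, SD, n = 2), or 24060 and 5156 counts. It was counted in a version of 549 bases whose sequence was not used here. Its retained-intron label comes from the version in the newer annotation, which has 344 bases. In counts scaled to library size, the retained-intron form of Hbb-bs was 3.15 times higher in replicate 1 than in replicate 2 and that of Hba-a1 2.23 times higher. The main protein-coding form of Hbb-bs went the other way, with 646.59 TPM in replicate 1 and 1519.42 TPM in replicate 2, as did that of Hba-a1 with 152.69 and 269.53 TPM.

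In 3485 expressed protein-coding genes that have an annotated retained-intron transcript, the median share of TPM in such forms was 11.8% and 11.4%, and 53.5% of these genes had a lower share in replicate 2. A share lower in replicate 2 by at least 10 percentage points was seen in 5.65% of them by TPM and in 2.09% by expected counts. Both Hba-a1 and Hbb-bs passed that size on both scales, with count shares of 29.5% and 9.67% for Hba-a1 and 24.0% and 4.09% for Hbb-bs. The retained-intron form of Hbq1b did not, at 14.09% and 12.04% of TPM from 10.4 and 8.84 counts. That of Hba-a2 had 0 and 1.25 counts, and Hbb-bt has no such form in the annotation used.

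**Figure D2:**
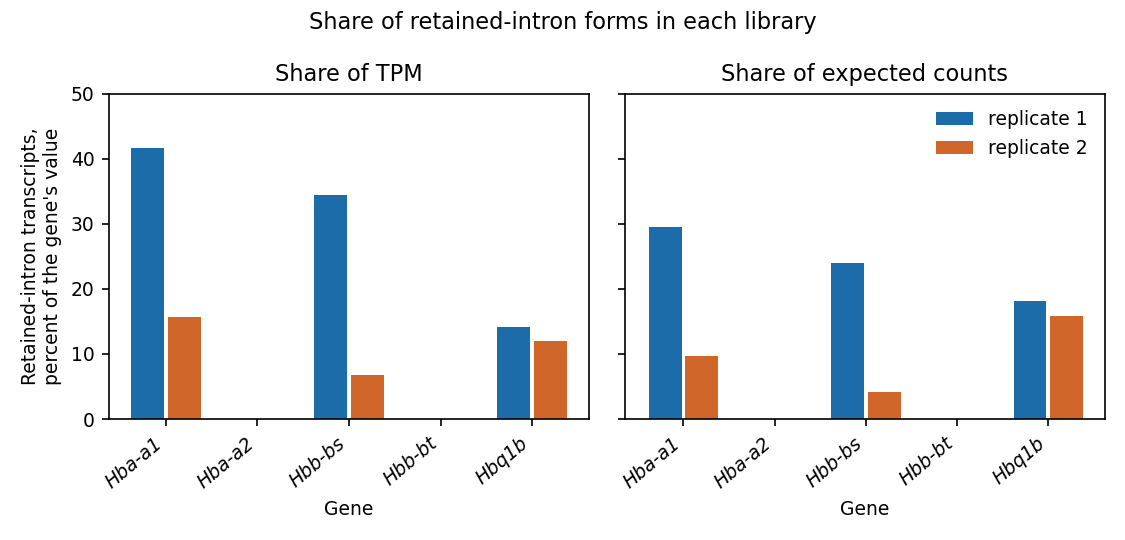
Share of each gene's TPM (left) and expected counts (right), in percent, on transcripts annotated as retaining an intron, in replicate 1 (blue) and replicate 2 (orange); each bar is 1 library and starts at 0. Shares of Hba-a1 and Hbb-bs are lower in replicate 2 on both scales (41.57% to 15.73% and 34.36% to 6.74% of TPM), Hba-a2 is at 0%, and Hbb-bt has no such annotated form.

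The alpha case shows how little sequence separates these assignments. The retained-intron forms of Hba-a1 and Hba-a2 are 494 bases long each and differ at 1 base, in their exon part. Both begin inside intron 1 and hold the last 113 of its 122 bases, which are identical in the genes, and 88.8% of the 50-base stretches of the Hba-a1 form also occur in Hba-a2. The stretch is shown because a read that lies within it is equally a read of either gene, and it is given as it lies in Hba-a1 (chr11:32283811-32283923, plus strand, GRCm38, intronic); it ends where the next exon begins, and it has no capitals because no base differs.
Hba-a1 retained intron 1: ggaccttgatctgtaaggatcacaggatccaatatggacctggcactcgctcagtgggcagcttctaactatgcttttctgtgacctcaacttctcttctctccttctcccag
The same letters lie at chr11:32296628-32296740 in Hba-a2. The deposited counts placed 6495 and 1968 of the reads on the Hba-a1 form, with a posterior SD of 156.83 and 144.13 counts, and at most 1.25 on the Hba-a2 form. Of the 494 bases of each form 381 are exon, so the counts do not show how many of these reads lay in the intron. Whether reads of the shared stretch came from Hba-a1, from Hba-a2 or from both cannot be told apart. Which gene they came from was not tested.

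Because these forms are counted into the gene, they enter every gene value above. On protein-coding transcripts alone Hba-a2 was 6.09 and 4.10 times Hba-a1, and Hbb-bs was 3.46 and 6.28 times Hbb-bt. The sums fell to 1083 and 1375 TPM for alpha and to 833 and 1761 TPM for adult beta. The deposited length of a gene follows its mix of forms. It was 613.79 and 666.75 bases for Hba-a1, 699.27 and 762.54 for Hbb-bs, and 554 in both libraries for Hba-a2. The effective length lay below it by 203 bases in replicate 1 and by 219 bases in replicate 2 for each of these genes. It was 411.11 and 447.46 bases for Hba-a1, 496.55 and 543.20 for Hbb-bs, and 351.31 and 334.75 for Hba-a2. Within a library, a higher share of a short form therefore goes with a higher TPM for the same count. Between the libraries, the larger subtraction in replicate 2 also enters the TPM of short genes.

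Between the replicates, with libraries scaled by TMM (the trimmed mean of M values), Hbb-bs was 1.86 times higher in replicate 2 (log2 0.89), Hba-a1 1.37 times, Hbb-bt 1.29 times and Hba-a2 1.16 times. None of the 4 adult genes differed by 2-fold or more, which 2.05% of 9777 genes did in either direction (those with a mean count of 100 or more) and 1.56% did upwards in replicate 2. All 4 were higher in replicate 2, where 48.2% of those genes were. Of the 4, only Hbb-bs passed 1.5-fold, which 5.01% of those genes passed upwards. The adult beta sum was 1.76 times higher in replicate 2 and the alpha sum 1.21 times.

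Counting protein-coding transcripts alone widened the difference of Hbb-bs to 2.34 times (log2 1.23) and that of Hba-a1 to 1.75 times. Hba-a2 remained at 1.16 times. On this count 1 of the 4 adult genes passed 2-fold, against 2.43% of 8795 genes. Among the erythroid markers, all with a mean count above 100, 9 of 12 had a higher TPM in replicate 2, where 44.0% of the 9777 genes did, and the list summed to 428.90 TPM in replicate 1 and 498.83 TPM in replicate 2. Rhag, a membrane protein of maturing red cells, was at 2.14 and 5.37 TPM, Hemgn at 1.29 and 3.06 TPM, Slc4a1, the anion exchanger, at 2.88 and 4.15 TPM, and Epb42, a membrane skeleton protein, at 0.49 and 0.80 TPM. The 3 markers with a lower TPM in replicate 2 were Epor, the erythropoietin receptor, at 3.33 and 2.77 TPM, Klf1, which acts on the adult beta promoters, at 28.11 and 27.56 TPM, and Ermap at 30.85 and 30.45 TPM. Of these 7 genes, all but Epb42 were picked out after their values had been seen. The erythroid and myeloid sums were higher in replicate 2, as the globins were, and their part in the replicate difference was not tested.

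**Figure D3:**
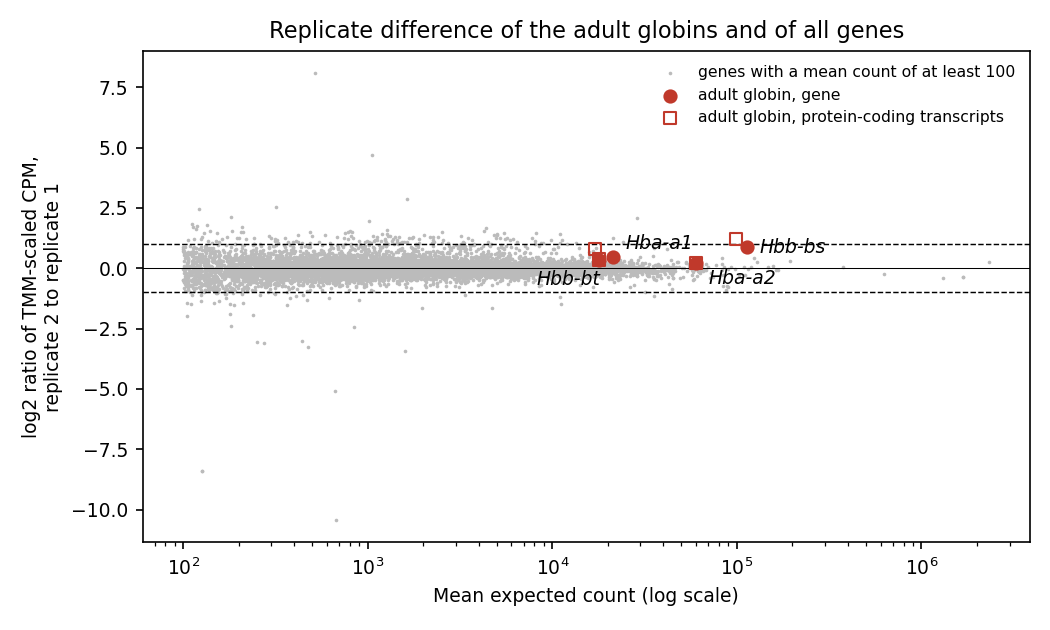
Log2 ratio of TMM-scaled CPM, replicate 2 to replicate 1, against the mean expected count (log axis) for 9777 genes whose mean count was 100 or more (grey) and the 4 adult globins (red circles, whole gene; open squares, protein-coding transcripts); dashed lines mark 2-fold. Hbb-bs lies at 0.89 as a gene and at 1.23 as protein-coding transcripts, past the 2-fold line, and the other 3 lie between 0.22 and 0.81.

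In the alpha cluster a low gene lay between the high ones, and in the beta cluster the high genes were neighbours. The alpha cluster spans 24.5 kb (chr11:32276400-32300873, plus strand) in the order Hba-x, Hba-a1, Hbq1b, Hba-a2 and Hbq1a. Hbq1b, at 0.74 and 1.10 TPM, lies between Hba-a1 and Hba-a2, and Hbq1a, with 0 counts, follows Hba-a2. The beta cluster spans 40.7 kb (chr7:103812524-103853216, minus strand) in the order Hbb-y, Hbb-bh1, Hbb-bh2, Hbb-bs and Hbb-bt. Its first 3 listed genes were its 3 lowest. Among the listed genes Hbb-bh2, with 0 counts, lies next to Hbb-bs, the highest of all. The pseudogene Hbb-bh3, also with 0 counts, lies between Hbb-bh2 and Hbb-bs.

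**Figure D4:**
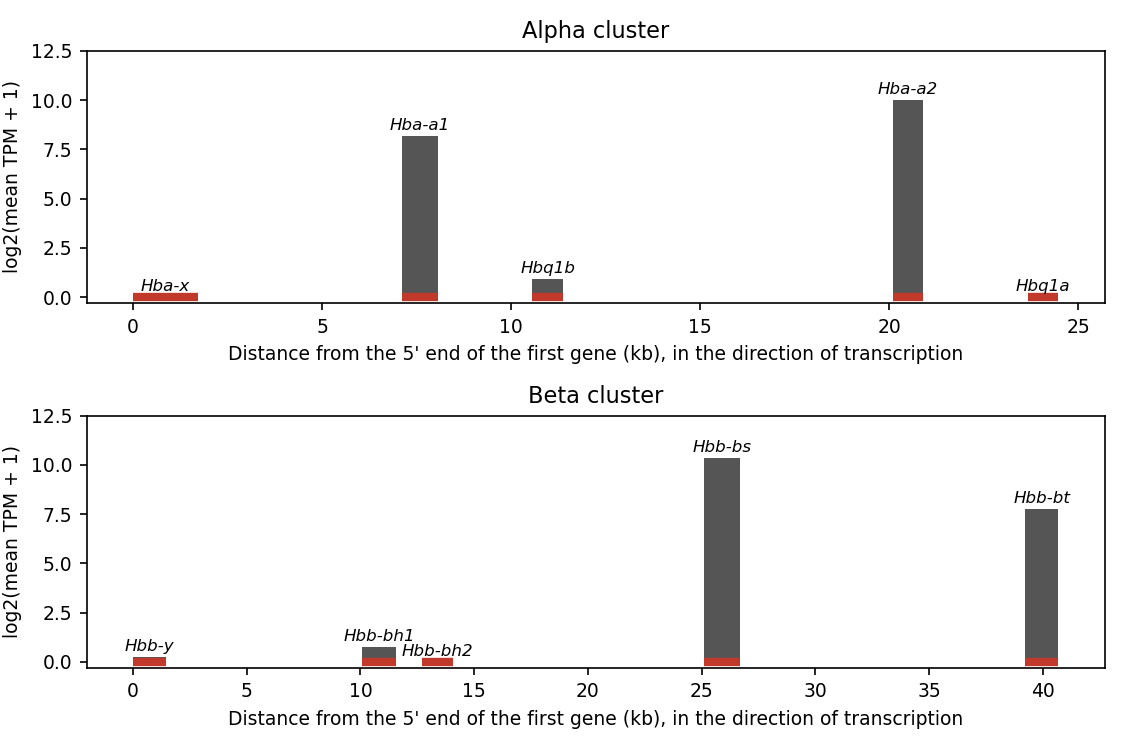
Globin clusters drawn to scale, with distance in kb from the 5′ end of the first gene in the direction of transcription; red strips are the gene bodies and bar heights the log2 of the mean TPM of both libraries plus 1. In the alpha cluster the tall bars, Hba-a1 and Hba-a2, begin 7.11 and 20.1 kb from the start, and in the beta cluster those of Hbb-bs and Hbb-bt begin at 25.1 and 39.2 kb.

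Genes around the clusters differed in kind. Within 200 kb of the alpha cluster 4 of 7 protein-coding neighbours reached 1 TPM in both libraries: Snrnp25 (22.45 and 22.52 TPM), a splicing protein, Nprl3 (5.40 and 6.50 TPM), whose introns hold the alpha enhancers, Mpg (1.93 and 1.94 TPM), a DNA repair glycosylase, and Il9r (1.07 and 1.22 TPM), a cytokine receptor. Within 200 kb of the beta cluster 0 of 23 did, and 19 of them had no reads. The 4 with reads, Olfr631, Olfr620, Olfr67 and Olfr66, are olfactory receptor genes and held at most 3 counts. The background for such counts is again 36.3% of nuclear protein-coding genes.

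Promoters of the adult couples differed in how alike their members were. Over the 250 bases upstream of the RefSeq starts, Hba-a1 and Hba-a2 were identical at 247 of 253 aligned columns (97.6%), Hbq1a and Hbq1b at 95.6%, and Hbb-bs and Hbb-bt at 69.3%. Hbb-bs shared 50.4% with Hbb-y, and Hba-a1 shared 50.4% with Hba-x. The alpha genes thus had nearly the same proximal promoter and differed 3.56-fold and 3.46-fold in TPM. On expected counts they differed 3.04-fold and 2.59-fold, and on protein-coding transcripts alone 6.09-fold and 4.10-fold. The counted Hba-a1 transcript begins 161 bases upstream of its RefSeq start, so it covers part of these 250 bases. Hbq1b and Hbq1a also had nearly the same letters, and 57 and 56 counts fell on the former against 0 on the latter.

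RefSeq sequences (GRCm38.p6) upstream of Hba-a2, Hbb-bs and Hbb-y are shown as the highest gene of each cluster beside a low embryonic one. They are chr11:32296382-32296488 on the plus strand, 110 to 4 bases before the RefSeq start of Hba-a2, chr7:103827929-103828011 on the minus strand, 83 to 1 bases before that of Hbb-bs, and chr7:103853217-103853317 on the minus strand, 110 to 10 bases before that of Hbb-y. Capitals mark exact matches of CCAAT and TATAA, and of CACCC where the window holds it whole or in part.
Hba-a2 promoter: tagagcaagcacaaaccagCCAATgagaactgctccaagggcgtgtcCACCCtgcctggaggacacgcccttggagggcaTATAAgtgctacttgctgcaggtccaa
Hbb-bs promoter: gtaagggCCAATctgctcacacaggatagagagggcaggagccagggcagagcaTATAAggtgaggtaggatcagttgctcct
Hbb-y promoter: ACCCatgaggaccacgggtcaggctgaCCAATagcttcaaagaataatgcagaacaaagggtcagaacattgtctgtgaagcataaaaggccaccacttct
Each window holds a CCAAT match, 91, 76 and 83 bases before the start of Hba-a2, Hbb-bs and Hbb-y. TATAA lies 30 and 29 bases before the starts of Hba-a2 and Hbb-bs, and in Hbb-y the TATA box form ATAAAA lies 28 bases before the start.

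Motifs were searched as exact letters on both strands in the 300 bases around each RefSeq start, for the 9 globins that had a promoter in the table, Hbb-bh1 being the exception. GATA, as AGATAA or TGATAA, was found in 6 of 9 globin promoters and in 18.6% of all 32851 promoters. CACCC, the box bound by KLF1-type factors, was found in 6 of 9 and in 57.5% of all, and CCAAT, the box of NF-Y, in 7 of 9 and in 37.4% of all. The TATA box, as TATAAA or ATAAAA, was found in 3 of 9 and in 24.7%, and the shorter TATAA, which overlaps TATAAA and was added after the sequences had been seen, in 6 of 9 and in 24.9%. The couples share most of their bases, so these promoters are not independent of each other.

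Matches did not sort the globins by level. Hba-x, with 0 counts, held GATA, CACCC and the TATA box, at 108, 95 and 28 bases before its start, and Hbb-y held all 4 motifs, with GATA at 162 bases. Hba-a1 and Hba-a2 held the same matches in the same order, 3 bases apart in position. Hbb-bt held 3 CACCC matches, at 140, 104 and 89 bases, where Hbb-bs held 1, at 90 bases, and GATA was found in Hbb-bs at 210 bases and not in Hbb-bt. Hbq1a held only CCAAT, at 149 bases, as Hbq1b did along with TATAA on the opposite strand, and Hbb-bh2 held only GATA. A match of letters is a description of the window and not evidence of binding.

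Genes that act on the globins were described by lists of known regulators. The background for counts at 1 TPM in both libraries, here and for the lists of the next paragraphs, is 36.3% of nuclear protein-coding genes. All 16 globin activators reached 1 TPM in both libraries, with a median of 13.4 TPM (mean of the replicates), where the median over nuclear protein-coding genes was 0.01 and 0.03 TPM. The highest were Lmo2, the bridging partner in GATA1 complexes, at 69.42 and 82.73 TPM, Gata1 at 60.05 and 73.23, Nfe2, a subunit of NF-E2, at 48.62 and 51.73, and Zfpm1, the GATA1 cofactor FOG1, at 43.30 and 43.52. Nfya, the subunit of NF-Y, was the lowest at 1.62 and 1.74 TPM. The value for Gata1 does not separate a transgene from any remaining transcript of the gene.

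Repressors of embryonic and fetal globin genes were nearly all detected too, with 15 of 16 at 1 TPM or more in both libraries, against that 36.3%. Their median was 5.02 TPM. Mbd2, which binds methylated DNA, was at 45.45 and 40.03 TPM, the chromatin remodeller Chd4 at 27.07 and 25.12, the demethylase Kdm1a at 21.08 and 20.68, and the DNA methyltransferase Dnmt1 at 8.44 and 13.00. The lowest were Nr2c1, a nuclear receptor, at 1.03 and 1.07 TPM and Sox6 at 0.07 and 0.09 TPM. Sox6, a repressor of the embryonic epsilon-like gene, was the only member of the list under 1 TPM. RNA factors of embryonic and fetal cells were mostly low, with 1 of 6 at 1 TPM in both. That gene was Igf2bp1, at 3.92 and 2.85 TPM, followed by Lin28b at 0.82 and 1.02 TPM and Igf2bp3 at 0.98 and 0.79 TPM.

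Proteins that bind globin messenger RNA reached 1 TPM in both libraries in 6 of 8 cases, with a median of 11.1 TPM. Ybx1 was at 64.82 and 69.48 TPM, Pabpc1, the poly(A) binding protein, at 67.88 and 56.72, Ncl at 22.98 and 22.71, and Pcbp1, of the family that binds alpha globin messenger RNA, at 17.25 and 15.66. Pcbp4 was at 1.04 and 0.17 TPM and Pcbp3 had 0 and 3 counts. Of the genes for chain assembly and quality control, 7 of 8 reached 1 TPM in both, with a median of 6.90 TPM. They were led by the chaperone Hspa8 (468.03 and 590.16 TPM), the proteasome subunit Psmd4 (133.17 and 124.12 TPM), Eif2ak1 (24.31 and 20.74 TPM), the haem-regulated kinase that slows globin translation, and Dnajb1 (7.59 and 8.83 TPM). The exception was Ulk1, an autophagy kinase, at 1.08 and 0.91 TPM. Ahsp, the alpha globin chaperone, was not analysed here.

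All 13 haem supply genes reached 1 TPM in both libraries, with a median of 54.8 TPM. They were led by the mitochondrial porphyrin transporter gene Tmem14c at 232.27 and 242.95 TPM, the transferrin receptor Tfrc at 164.59 and 209.82, the mitochondrial transporter Abcb10 at 105.41 and 113.67, and Alas2, the rate-limiting enzyme of erythroid haem synthesis, at 81.24 and 84.24. The lowest were Ppox at 15.05 and 14.30 TPM and the iron importer Slc25a37 at 5.06 and 7.78 TPM. Each of the adult globin sums was above the sum of all 13 haem supply genes, which was 887.16 TPM in replicate 1 and 1002 TPM in replicate 2.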

How the data were processed

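Values came from 1 gene table and 1 transcript table that the authors deposited for each library. Expected counts, which need not be whole, are deposited per the file headers. TPM and its posterior mean, and FPKM as an alternative, are deposited per the file headers. The percent of a gene's TPM on each transcript was deposited by the authors, per the file headers. Lengths, posterior SDs and credible bounds, listed here as signal values, were deposited by the authors, per the file headers; the level of the bounds was not given. Assembly mm10 and annotation GENCODE M4 are named in the deposited text lists; the aligner, counting program and use of strand are not given in the sources used here. Names, coordinates and transcript sequences came from GENCODE M21 (same assembly, GRCm38), joined on identifiers without version, for 42462 of 43346 genes; the 884 others held at most 0.145% of a library's counts. A further 26345 rows without Ensembl identifiers held 18 and 5 counts and were left out.

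Members, gene lists and comparisons were chosen with earlier results of these data known, although the rule for the members is a list of symbols and applies no measured value. Named genes are the members, the pseudogenes and other globins, of each list up to 4 genes with the highest and 2 with the lowest mean TPM, neighbours at 1 TPM, and the 2 genes nearest in level to Hbb-bs and to Hba-a2. Replicate differences used expected counts with TMM factors of edgeR 4.0.16 (R 4.3.3), a prior count of 0.5 and a minimum mean count of 100. Scaling was tested on simulated data with changes larger than the folds used here and equal in number up and down. That run does not test the smaller folds. DESeq2 1.42.0 size factors were an alternative. Other steps used Python 3.11.15 with pandas 2.3.3 and numpy 2.4.6. Errors are the SD over 2 libraries; with 1 group and no contrast, no p-value was computed.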

Additional observations from a re-analysis of the deposited data

How the results depend on the processing

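Posterior mean TPM and FPKM moved no ratio beyond the spread of the replicates, and DESeq2 size factors left the count of members with a 2-fold replicate difference at 0. Globins at 1 or more in both libraries went from 4 in TPM to 6 in FPKM and to 6 in TPM rescaled to nuclear protein-coding genes (Hbq1b and Hbb-bh1 added). Both of these scales also raise the values of other genes. The shares of all genes given above are for TPM only, so they are no background for these counts. No ratio larger than its spread changed direction under any alternative run; that of alpha to adult beta, within its spread, went from -0.18 to 0.01 on protein-coding transcripts. On expected counts the log2 ratio of alpha to adult beta was -0.69, of Hba-a2 to Hba-a1 1.49 and of adult to embryonic beta 11.05, the globin share of the library was 0.431% and the share of the retained-intron form of Hbq1b 17.0%; of the TPM of nuclear protein-coding genes globins took 1.98%. With a pseudocount of 1 TPM the adult to embryonic beta ratio was 9.61 and that of Hbb-bh1 to Hbb-y 0.50. On protein-coding transcripts alone, an alternative chosen after seeing the data, Hba-a2 to Hba-a1 was 2.32 and Hbb-bs to Hbb-bt 2.22. Replicate differences of 2-fold went from 0 to 1 member without the filter on low counts (Hbb-y; 34.1% of 18789 genes), to 1 on protein-coding transcripts and to 1 at 1.5-fold (Hbb-bs both times). With stretches of 75 and 100 bases, 62.2% and 56.5% of Hba-a1 and 81.0% and 74.5% of Hba-a2 were shared.

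At 5 TPM in both libraries, 4 of 8 chain assembly genes, 8 of 16 repressors and 6 of 12 erythroid markers remained in the counts. So did 0 of 6 fetal RNA factors, 1 of 9 megakaryocyte markers and 2 of 7 alpha neighbours. With any count in both, there were 5 of 6 fetal RNA factors, 1 of 10 lymphoid, 7 of 8 mast cell, 5 of 9 megakaryocyte and 7 of 12 myeloid genes. These counts differ by the threshold alone. Without 1 replicate, 1 to 2 fetal RNA factors reached 1 TPM, and the globins at 1 TPM or more were 4 to 5 (Hbq1b in replicate 2). Shares of all genes at these thresholds, or in 1 library, are not given here, so these counts have no background beside them.

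No paired analysis was possible because there is only 1 group. Depth limits Hbb-y (11 and 18 counts), Hbb-bh1, Hbq1b and the 3 genes at 0 counts.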
